A study of Mus musculus with 2 samples.

Results

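The Hox cluster genes are the homeobox genes that lie side by side in the Hoxa, Hoxb, Hoxc and Hoxd clusters. They were taken by symbol from the GENCODE M21 annotation of the mouse genome (mm10): 39 of 21938 protein-coding genes, with 11 in Hoxa on chromosome 6, 10 in Hoxb on chromosome 11, 9 in Hoxc on chromosome 15 and 9 in Hoxd on chromosome 2. The data were ATAC-seq, in which a transposase cuts and tags open DNA, of megakaryocyte progenitors, the blood precursors of the platelet-releasing megakaryocytes. The primary cells were taken from C57BL/6J mice, males 5 to 6 weeks old, and the labels name no genetic change or treatment. CFU-M, a code in both descriptions, is left uninterpreted here, and the description of replicate 1 names 2 sequencing instruments. There was 1 group with 2 libraries of 50000 cells each, numbered as biological replicates 1 and 2. Both libraries carry the same donor label, and nothing beyond the replicate numbers says how the cells were separate, so the spread between them may be partly technical.

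Hox proteins are transcription factors that give cells positional identity along the body axis, and genes of one cluster are known to be used in the order in which they lie on the chromosome, from the 3′ to the 5′ end. Genes at the same place in different clusters are paralogues and share a number. In blood formation, Hoxa and Hoxb genes are best known from stem and early progenitor cells, where they act with partners of the TALE homeobox class such as Meis1 and Pbx proteins. Silent Hox clusters are a textbook target of Polycomb repression, and the protein CTCF is known to divide the clusters into active and silent domains.

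An open region here is 1 or more peaks of the authors' conservative list, made from both libraries, that share bases. Its signal is the authors' own value for the strongest peak, which has no unit and no stated scaling between libraries. A gene had a promoter peak when such a region came within 1 kb of a start site of a protein-coding transcript. Each library also has a list of its own, and a gene's value there is given beside the value of both libraries together. Depth per library is unknown. With 1 group there is no comparison to test, so counts are set beside those of all genes or all open regions.

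The sequences below are those of the strongest open region inside each cluster, followed by the Hoxb8 and Hoxd12 regions, whose summits lie beside a match to the CTCF recognition sequence. They are plus-strand mm10 sequence around the strongest summit, 300 bases long except where exons of protein-coding genes were left off (Hoxb5, 231 bases). Capitals mark a match to the CTCF core with 1 mismatch, or to AGNNGGCGC. The latter starts in the 3′ part of that core, leaves positions of it free and runs past its end. It was chosen after these sequences had been read.
Hoxa4 promoter, chr6:52191795-52192094: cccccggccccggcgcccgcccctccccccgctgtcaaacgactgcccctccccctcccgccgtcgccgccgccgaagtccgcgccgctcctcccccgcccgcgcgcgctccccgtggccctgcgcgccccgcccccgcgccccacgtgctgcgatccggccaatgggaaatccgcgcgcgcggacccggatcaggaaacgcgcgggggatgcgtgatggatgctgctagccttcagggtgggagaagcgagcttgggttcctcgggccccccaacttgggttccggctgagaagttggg
Hoxb5 promoter, chr11:96303105-96303335: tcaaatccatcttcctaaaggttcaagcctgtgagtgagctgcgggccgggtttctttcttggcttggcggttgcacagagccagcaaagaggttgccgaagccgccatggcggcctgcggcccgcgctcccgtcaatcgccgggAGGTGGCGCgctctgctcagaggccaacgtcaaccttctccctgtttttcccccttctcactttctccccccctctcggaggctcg
Hoxc5 intron, chr15:102987465-102987764: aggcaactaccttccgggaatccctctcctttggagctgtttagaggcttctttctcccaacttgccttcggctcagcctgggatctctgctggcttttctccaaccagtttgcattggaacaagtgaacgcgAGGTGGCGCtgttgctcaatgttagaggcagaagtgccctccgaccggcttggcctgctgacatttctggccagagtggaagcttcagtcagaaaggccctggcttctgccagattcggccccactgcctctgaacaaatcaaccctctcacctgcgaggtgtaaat
Hoxd3 intron, chr2:74715821-74716120: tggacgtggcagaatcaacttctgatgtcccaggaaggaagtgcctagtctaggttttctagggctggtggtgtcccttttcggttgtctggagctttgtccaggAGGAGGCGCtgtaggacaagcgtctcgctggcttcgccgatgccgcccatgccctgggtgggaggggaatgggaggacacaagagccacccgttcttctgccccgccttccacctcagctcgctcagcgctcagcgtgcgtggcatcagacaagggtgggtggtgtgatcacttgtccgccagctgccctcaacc
upstream of Hoxb8, chr11:96278807-96279106: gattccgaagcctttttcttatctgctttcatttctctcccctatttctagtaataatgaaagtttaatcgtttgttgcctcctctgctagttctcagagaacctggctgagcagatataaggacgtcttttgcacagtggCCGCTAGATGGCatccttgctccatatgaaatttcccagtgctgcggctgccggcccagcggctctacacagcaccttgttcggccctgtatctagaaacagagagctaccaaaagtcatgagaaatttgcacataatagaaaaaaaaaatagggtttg
upstream of Hoxd12, chr2:74673022-74673321: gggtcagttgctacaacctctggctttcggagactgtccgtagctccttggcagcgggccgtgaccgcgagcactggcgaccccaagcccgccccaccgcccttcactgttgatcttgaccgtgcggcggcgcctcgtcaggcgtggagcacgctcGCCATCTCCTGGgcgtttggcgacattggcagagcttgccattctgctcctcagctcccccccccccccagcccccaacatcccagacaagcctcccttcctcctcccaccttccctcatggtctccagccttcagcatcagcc
The Hoxa4 sequence held neither match, while the Hoxb5, Hoxc5 and Hoxd3 sequences each held the AGNNGGCGC letters on the plus strand, which is the coding strand of these 3 clusters. The AGNNGGCGC match lay 1 bp from the summit in the Hoxb5 region, 13 bp in the Hoxc5 region and 41 bp in the Hoxd3 region. These are descriptions of letters, and binding of CTCF was not measured.

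Promoter peaks of the conservative list were found at 10 of the 39 Hox genes (25.6%), against 61% of all protein-coding genes. Open promoters were mostly those of Hoxa: 7 of its 11 genes had a peak (63.6%), against 2 of 10 in Hoxb, 1 of 9 in Hoxc and 0 of 9 in Hoxd. Hoxa was thus near the share of all genes, and the other clusters together had 3 of 28 genes with a peak (10.7%). Replicate 1's own list held 9 of the 39 genes, while it held 57.9% of all genes. Replicate 2's own list also held 9 Hox genes, beside 57.1% of all genes, and 8 Hox genes were in both. By cluster, replicate 1 had 5 Hoxa, 2 Hoxb, 2 Hoxc and 0 Hoxd genes, and replicate 2 had 6, 2, 1 and 0.

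**Figure D1:**
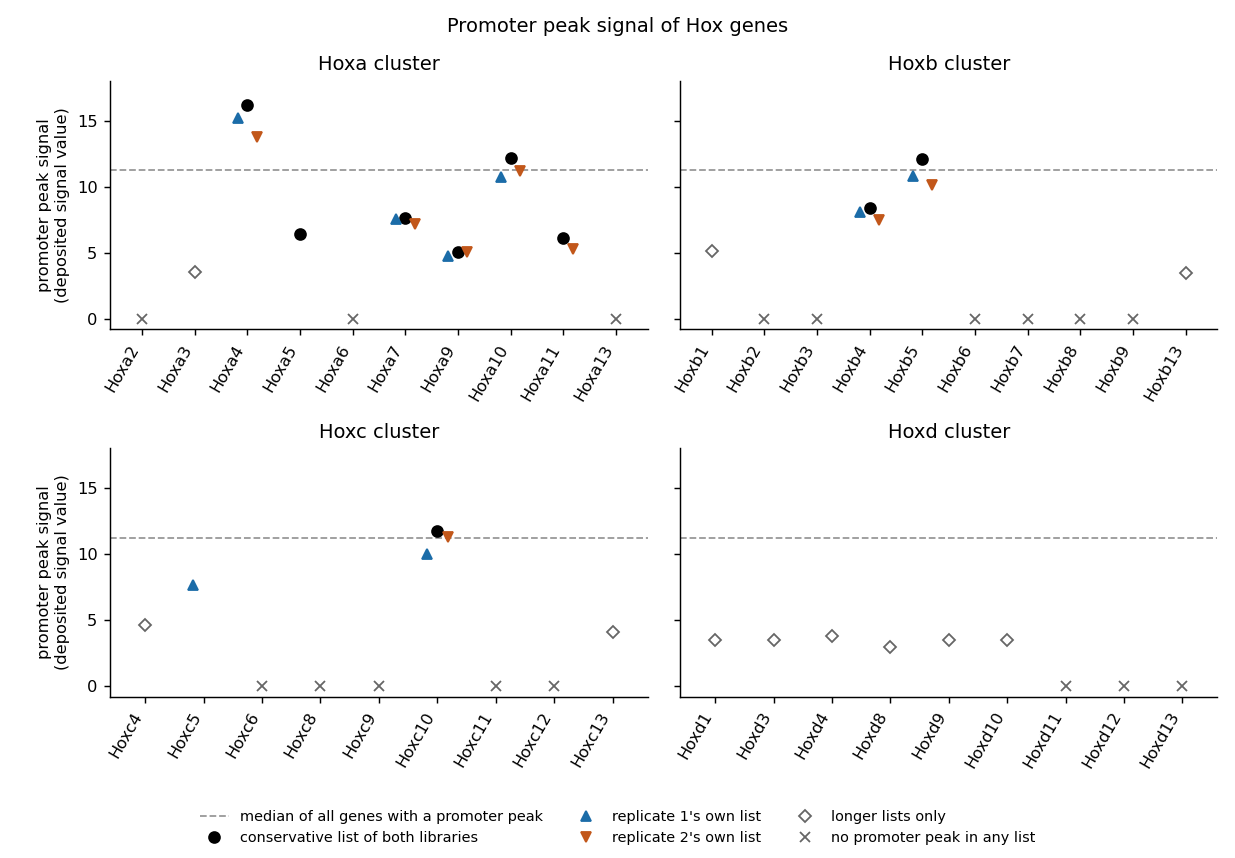
Promoter peak signal (deposited value, y axis) of the Hox genes described here in the conservative list (circles), in replicate 1's own list (upward triangles) and in replicate 2's own list (downward triangles), with open diamonds for genes seen only in longer lists (value in a longer list of both libraries) and crosses at 0 for genes with no promoter peak in any list. Hoxa4 is highest at 16.2, the dashed line is the median of all genes with a promoter peak at 11.2, and no Hoxd gene has a value above 3.79.

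The anterior genes, numbered 1 to 3, are the first in the 3′ to 5′ order and pattern the hindbrain and neck. Hoxa2, Hoxb2 and Hoxb3 had no promoter peak in any list used, and Hoxa3, Hoxb1, Hoxd1 and Hoxd3 had one only in the authors' longer lists. Their values in the longer lists of both libraries were 3.56, 5.11, 3.46 and 3.46.

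The central genes, numbered 4 to 8, had peaks at 5 of 15 promoters. Hoxa4 had the strongest Hox promoter, with a signal of 16.2 in the conservative list, 15.2 in replicate 1 and 13.8 in replicate 2 (14.5 ± 0.99, SD, n = 2). That was at the 87.7th percentile of all open promoters. The region, chr6:52191752-52192475, had 2 summits, the stronger 192 bp upstream of the Hoxa4 start and in an intron of the long Hoxa3 transcript. It was the widest open Hox promoter at 724 bp and had a match to the MEIS sequence TGACAG.

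Hoxb5, known as a marker of long-term blood stem cells, followed among the central genes. Its signal was 12.1 in the conservative list, 10.8 in replicate 1 and 10.1 in replicate 2 (10.5 ± 0.51, SD, n = 2). The summit of its region, chr11:96303104-96303418, lay 257 bp upstream of the start. Hoxb4, known for expanding blood stem cells when overexpressed, had 8.41, with 8.12 in replicate 1 and 7.49 in replicate 2. Its region, chr11:96318511-96318765, had its summit in an untranslated part of an exon, 372 bp past the start. Both Hoxb promoters were thus listed in both libraries, and Hoxb5 was above Hoxb4 in each.

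Hoxa7, a gene of trunk patterning that is also used in blood progenitors, had 7.64, with 7.56 in replicate 1 and 7.16 in replicate 2. A second region at another annotated start of Hoxa7 had 3.62 and was in neither library's own list. Hoxa5 had 6.43 in the conservative list and was in neither own list; its values in the libraries' longer lists were 5.27 in replicate 1 and 6.11 in replicate 2. Hoxc5 was the reverse case: it had 7.63 in replicate 1's own list, but no peak in replicate 2's lists or in the conservative list, and 7.40 in the authors' IDR-thresholded list of both libraries, where IDR is the irreproducible discovery rate of a peak. The central genes Hoxc4, Hoxd4 and Hoxd8 were seen only in longer lists of both libraries, at 4.62, 3.79 and 2.98. Hoxa6, Hoxb6, Hoxb7, Hoxb8, Hoxc6 and Hoxc8 had no promoter peak in any list.

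The posterior genes, numbered 9 to 13, pattern the lower trunk, limbs and urogenital tract. They had peaks at 4 of 16 promoters. Hoxa10, which is also known as a regulator of blood progenitor growth, had 12.2 in the conservative list, 10.7 in replicate 1 and 11.2 in replicate 2 (10.95 ± 0.30, SD, n = 2). The summit of its region, chr6:52240264-52240863, lay 303 bp past the start in an untranslated part of an exon. Hoxa9, the Hox gene most often named in myeloid leukaemia, had the weakest called promoter: 5.04 in the conservative list, 4.75 in replicate 1 and 5.05 in replicate 2 (4.90 ± 0.21, SD, n = 2). That was at the 2.20th percentile of all open promoters, so Hoxa9 was listed in both libraries with low signal.

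Hoxc10, a gene of the lower spinal cord and hindlimb, was the only Hoxc gene in the conservative list. Its signal was 11.7, with 10 in replicate 1 and 11.3 in replicate 2 (10.6 ± 0.89, SD, n = 2), and the region was chr15:102966441-102966752 with its summit 199 bp upstream of the start. Hoxa11 had 6.11 in the conservative list and 5.31 in replicate 2, and in replicate 1 only the longer list held it, at 4.63. The Hoxa11 summit lay 818 bp upstream of the start, and the same region covered the promoter of the noncoding gene Hoxa11os. Hoxb13, Hoxc13, Hoxd9 and Hoxd10 were seen only in longer lists, at 3.46, 4.12, 3.48 and 3.50 in those of both libraries. Hoxa13, Hoxb9, Hoxc9, Hoxc11, Hoxc12, Hoxd11, Hoxd12 and Hoxd13 had no promoter peak in any list.

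Among the genes described here that both libraries listed, the order of levels was Hoxa4, then Hoxa10, Hoxb5 and Hoxc10 close together, then Hoxb4 and Hoxa7, and last Hoxa9. Hoxa4 was above all the others in each library, and Hoxa9 below all the others in each. The order of Hoxa10, Hoxb5 and Hoxc10 differed between the libraries: Hoxb5 led them in replicate 1 and Hoxc10 in replicate 2. Of the 8 Hox promoters in both own lists, replicate 1 was higher at 5 and replicate 2 at 3. The SD between the libraries ran from 0.21 to 0.99.

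By paralogue group, open promoters were found in groups 4 (2 of 4 genes), 5 (2 of 3), 7 (1 of 2), 9 (1 of 4), 10 (2 of 3) and 11 (1 of 3). Groups 4, 5 and 10 each had open promoters in 2 clusters: Hoxa4 with Hoxb4, Hoxa5 with Hoxb5, and Hoxa10 with Hoxc10. In groups 2, 3, 6, 8, 12 and 13 no gene was called open by the conservative list.

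The open Hox promoters were narrow, and their signals spread from the 2.20th to the 87.7th percentile of all open promoters. Their median signal was 10.1, against 11.2 for all genes with a promoter peak (quartiles 8.64 and 14.03), and 5 of the 10 were above that median. The 11 open regions at Hox promoters had a median width of 365 bp (235 to 724), against 757 bp for all 16285 promoter regions, and all 11 were narrower than that median. A single summit was found in 8 of these 11 regions, against 38.1% of all promoter regions.

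The authors' replicated and pseudoreplicated lists of both libraries are longer and take weaker peaks. In the replicated list 21 of the 39 Hox genes had a promoter peak (53.8%), against 68.9% of all genes. In the pseudoreplicated list 20 had one (51.3%), against 68.4%. The number of Hox genes therefore went from 10 to 21 with the choice of list, while the number of all genes went from 13386 to 15117. For 11 genes only longer lists held a promoter peak, with signals of 2.98 to 5.11 (median 3.50) in these lists of both libraries, and 7 of the 11 were also in a single library's longer list. Of the 39 genes, 17 had no promoter peak in any list used.

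**Figure D2:**
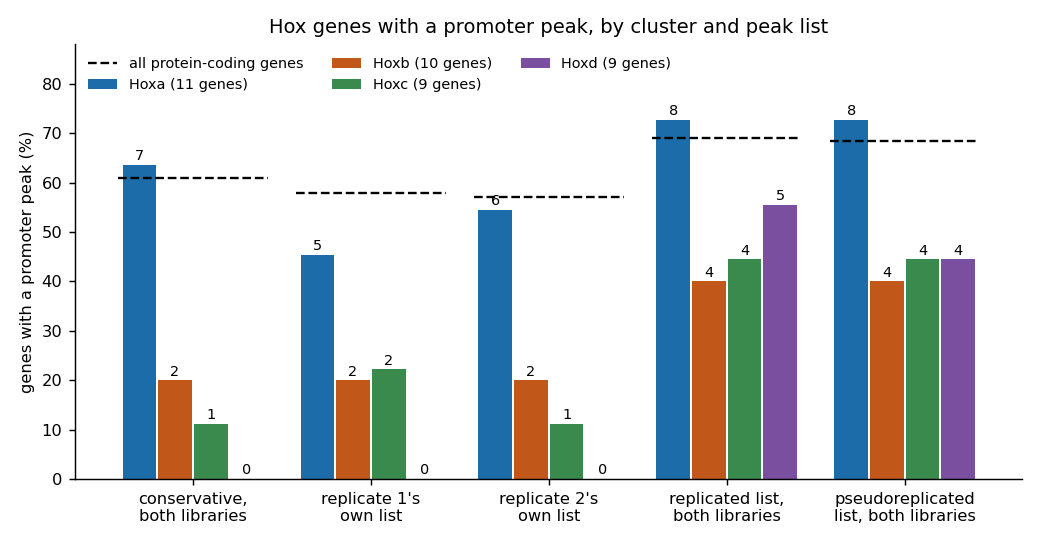
Share of the genes of each cluster with a promoter peak (y axis, percent) in 5 of the authors' peak lists, with the number of genes above each bar and a dashed line at the share of all protein-coding genes. Hoxa is nearest the dashed line in each list, with 5 to 8 of its 11 genes, and Hoxd goes from 0 genes in the conservative list to 5 in the replicated list.

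Promoters rich in CpG dinucleotides are open in most cell types, and Hox promoters are known to be rich in them. Over 1 kb on each side of the start, the median ratio of observed to expected CpG was 0.60 for the 39 Hox genes and 0.48 for all genes. The start was the one nearest the strongest peak for genes with a peak, and the gene's 5′ end for genes without. That end need not be the start of a protein-coding transcript, and the site taken thus depended on the peak. Among all genes, those with a promoter peak had a median of 0.60 and those without had 0.20. Among the Hox genes the medians were 0.65 with a peak and 0.59 without. The 29 Hox genes without a peak ran from 0.17 to 0.86, so some but not all of them were CpG-rich. Of the 20 Hox promoters like CpG islands (GC content over 50% and a ratio over 0.6), 6 had a peak (30%), against 89.2% of all such promoters. Replicate 1's own list held 4 of these 20 and replicate 2's held 5. Hoxd3 and Hoxd4, both among the 20, have nearly the same 5′ end, so nearly the same sequence was counted for both.

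The Hox genes with an open promoter all had a ratio above 0.5. Of 10 Hox genes with a ratio from 0.5 to 0.6, 4 had a peak, and of 11 from 0.6 to 0.7, 2 had one. In the same bins 83.3% and 87.9% of all genes had a peak. The highest ratio of any Hox gene was that of Hoxa5, at 0.89, which had a peak. Hoxa13, at 0.86, and Hoxd8, at 0.85, had none in the conservative list.

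**Figure D3:**
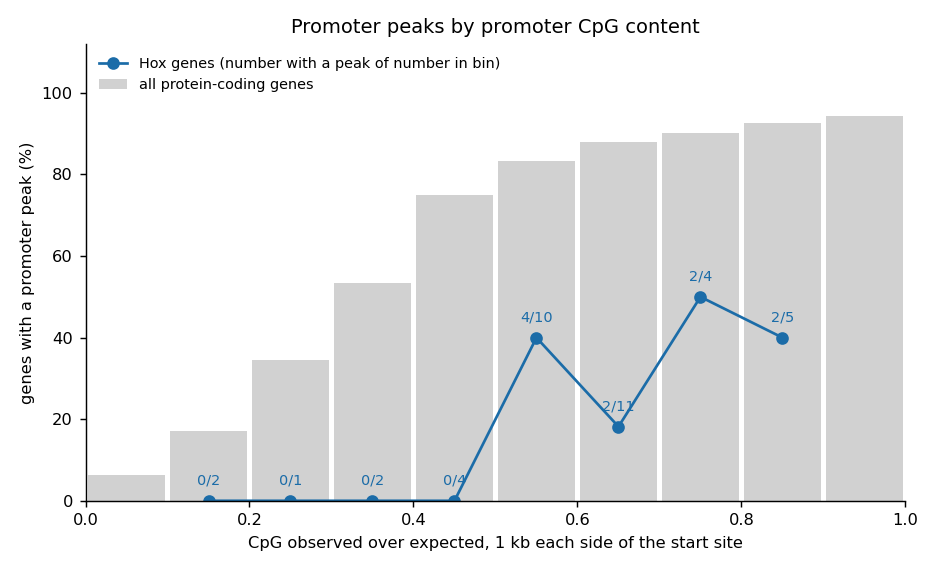
Share of genes whose promoter is open by the conservative list (y axis, percent) by the observed over expected CpG ratio around the start (x axis, bins of 0.1), as bars for all protein-coding genes and points for Hox genes with their counts. The bars rise to 94.4% in the highest bin drawn, while the points stay at 50% or below, from 0 of 4 genes in the bin from 0.4 to 0.5 to 2 of 4 in the bin from 0.7 to 0.8.

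Across the 4 clusters with 50 kb on each side there were 34 open regions, 26 of them inside a cluster. Hoxa had 11 regions inside the cluster, Hoxb had 9, Hoxc had 3 and Hoxd had 3. The own lists, which are shorter, held fewer: replicate 1 had 6, 6, 3 and 3 inside the clusters in this order, and replicate 2 had 7, 7, 2 and 2. Hoxa and Hoxb therefore held more open regions than Hoxc and Hoxd in each library. These counts do not allow for length, which was 173.9 kb in Hoxb and 96.8 kb in Hoxd. Per 100 kb inside the cluster, Hoxb and Hoxd were close in replicate 1 (3.45 and 3.10) and further apart in replicate 2 (4.02 and 2.07).

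Over a whole cluster with its flanks, the density of open regions was 6.82 per 100 kb in Hoxa, 4.38 in Hoxb, 1.39 in Hoxc and 2.54 in Hoxd. Windows of each protein-coding gene with the same flanks had a median of 5.88 per 100 kb, those of the Hox genes a median of 4.84, and the whole genome had 2.97. The libraries differed here: the Hox gene median was 4.65 against 4.59 for all genes in replicate 1's own list. In replicate 2's own list it was 2.91 against 4.51, so the Hox median was the lower one in replicate 2 but not in replicate 1. In replicate 1's own list Hoxa had 3.90 and the median gene window 4.59, while in replicate 2's list Hoxa had 4.87 and the median gene window 4.51. Hoxa was thus above the typical gene window in the conservative list and in replicate 2 but not in replicate 1, and the other clusters were below it in all 3 lists.

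**Figure D4:**
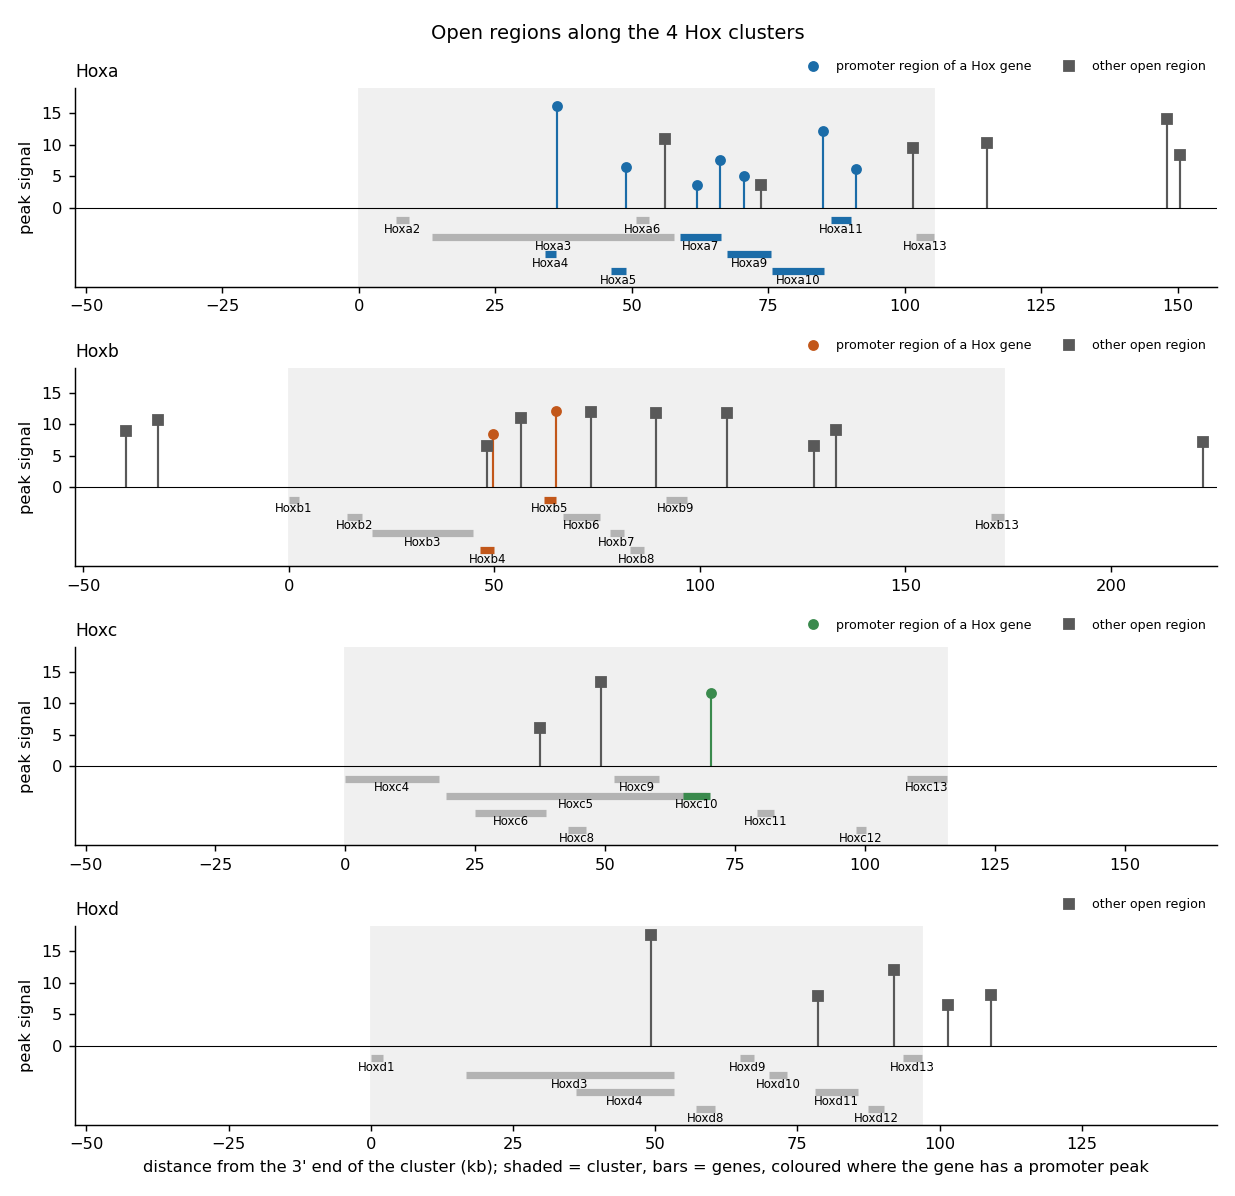
Open regions of the conservative list described here along each cluster and its 50 kb flanks, with distance from the 3′ end of the cluster on the x axis (kb) and peak signal on the y axis; bars under the axis are the Hox genes, coloured where the gene has a promoter peak. Hoxa regions are spread over the cluster, Hoxb regions stand mostly between 48 and 133 kb, and Hoxc and Hoxd have 3 inside regions each.

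Of the 34 regions, 11 were at a Hox promoter, while 16285 of all 80938 regions were at a promoter of a protein-coding gene. The other 23 had a median signal of 9.42, against 8.75 for all regions outside promoters. Of the 34 summits, 17 were between protein-coding genes, 10 in introns, 5 in untranslated exons and 2 in coding exons. The same split is not given for all regions. Both libraries' own lists held 19 of the 34 regions, against 63.9% of all regions of the conservative list. Neither own list held 7 of them, against 18.9% of all regions, and the remaining 8 were in 1 library's list (5 in replicate 1, 3 in replicate 2). Of the 19 in both lists, 13 were higher in replicate 1 and 6 in replicate 2, with log2 ratios of replicate 2 to replicate 1 from -0.21 to 0.18 and a median of -0.08.

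The strongest region of all 4 windows was in Hoxd, where no Hox promoter had a peak in the conservative list or in either library's own list. It was chr2:74715741-74716204, in an intron shared by the long transcripts of Hoxd3 and Hoxd4 and at the annotated start of the antisense gene Hoxd3os1. Its signal was 17.5 in the conservative list, 14.8 in replicate 1 and 16.7 in replicate 2 (15.8 ± 1.40, SD, n = 2), at the 96.5th percentile of all open regions. The next in Hoxd, chr2:74672920-74673299, had 12.0 and lay between Hoxd13 and Hoxd12, 1841 bp upstream of Hoxd12. Another, chr2:74655789-74656320, had 8.11 and lay in a coding exon of Evx2, the homeobox gene at the 5′ end of the cluster. All 3 were in both libraries' own lists.

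In Hoxc the strongest region, chr15:102987458-102987759, had 13.4, with 12.0 in replicate 1 and 11.3 in replicate 2. It lay in an intron of the long Hoxc5 transcript, 2992 bp upstream of Hoxc8, a gene with no promoter peak in any list. The other, chr15:102999206-102999758, had 6.10, lay in an intron of Hoxc6 and was in neither own list. In Hoxc, as in Hoxd, the strongest region was therefore away from a Hox start site.

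In Hoxb 3 regions outside promoters were nearly equal in strength. They were chr11:96294595-96294878 in an intron of Hoxb6 with 11.9, chr11:96278827-96279099 located 2948 bp upstream of Hoxb8 with 11.7, and chr11:96261561-96261881 with 11.7. The last was at a start of the noncoding gene Gm53, 9712 bp upstream of Hoxb9. Each was in both own lists, although Hoxb6, Hoxb8 and Hoxb9 had no promoter peak in any list.

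In Hoxa the strongest region outside promoters, chr6:52303444-52303803, had 14.1 and lay in the 5′ flank, 9859 bp upstream of Evx1. Its value was 12.5 in replicate 1 and 12.4 in replicate 2. Next were chr6:52211405-52211890 with 10.9, in the Hoxa3 transcript between Hoxa6 and Hoxa7, and chr6:52270430-52270806 with 10.3, located 9784 bp upstream of Hoxa13. The summit of the former lay 1369 bp past a Hoxa3 start, and the region was outside the 1 kb limit for a promoter peak. Evx1 and Hoxa13 themselves had no promoter peak. The Evx1 side of Hoxa therefore held open regions in both libraries beyond the last open Hox promoter, that of Hoxa11.

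Noncoding genes share the clusters. Of 19 long noncoding genes inside them, 5 had an open region within 1 kb of a start. Among them were Hoxa11os, which shares its region with the Hoxa11 promoter, 9530018H14Rik with 9.42, Gm53 with 11.7 and Hoxd3os1 with 17.5. The 9530018H14Rik region was in neither library's own list, and its longer-list values were 7.18 in replicate 1 and 9.71 in replicate 2. The annotation gives this gene the type TEC, and it is counted here as long noncoding. Hotair, the antisense RNA gene of the Hoxc cluster, had none, and neither did Hoxaas2, Gm15050, Hoxaas3, Gm29430, Hoxb5os, Gm11536, Hoxb3os, Gm28309, Gm14396, Gm28793, Haglr, Gm14424 and Gm14426. Of 7 microRNA genes 1 had a region within 1 kb, Mir196b with 3.59, which neither library's own list held. Mir10a, Mir10b, Mir196a-1, Mir196a-2, Mir615 and Gm44463 had none. The microRNA promoters proper are not annotated, so this says only what is near the hairpins. The shares over all long noncoding and all microRNA genes are not given, so whether these counts are low was not tested.

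Short recognition sequences were searched on both strands within 150 bp of each summit, in the 34 regions and in all 80938 regions. The CTCF core had no match in the 34 regions, with an upper Wilson bound of 10.2% (95%), against 6.74% of all regions. With 1 mismatch allowed, 7 of the 34 had a match (20.6%), against 21.2% of all. The 7 were the Hoxa5, Hoxa7 and Hoxa10 promoters, the region upstream of Hoxa13, and the regions upstream of Hoxb8, upstream of Hoxd12 and in Ttll6. In the Hoxb8 region the match was centred 4 bp from the summit, and in the Hoxd12 region 12 bp.

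AGNNGGCGC was found in 9 of the 34 regions (26.5%, Wilson interval 14.6 to 43.1%) and in 8.20% of all regions. The median GC content of these windows was 57.8% in the Hox regions and 49.5% in all regions, and the part of GC content in this difference was not tested. All 3 Hoxc regions held it, including the Hoxc10 promoter. The Hoxa10 promoter held it together with the mismatched core, the 2 matches overlapping. Regions of a cluster are not independent, and the letters were picked after reading 4 of these sequences, so the share is a description.

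Sequences of blood transcription factors had shares near those of all regions, with 1 exception. The GATA sequence AGATAA was in 17.6% of the Hox regions (19.1% of all), the ETS sequence AGGAAG in 41.2% (47.2%) and the AP-1 and NFE2 sequence TGANTCA in 11.8% (11.1%). The RUNX sequence TGTGGT was in 8.82% of the Hox regions (3 of 34), with a Wilson interval from 3.05 to 22.96%, while 28.9% of all held it. The Hox windows were richer in GC (median 57.8%, against 49.5%), and the part of GC content in the RUNX difference was not tested. Regions of a cluster are also not independent. The MEIS sequence TGACAG was in 23.5% (22.4%). TGATTNAT, bound by PBX and HOX proteins together, was in 0 of the 34 (2.93%), and TTTATGG, bound by CDX proteins, in 1 (2.99%).

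**Figure D5:**
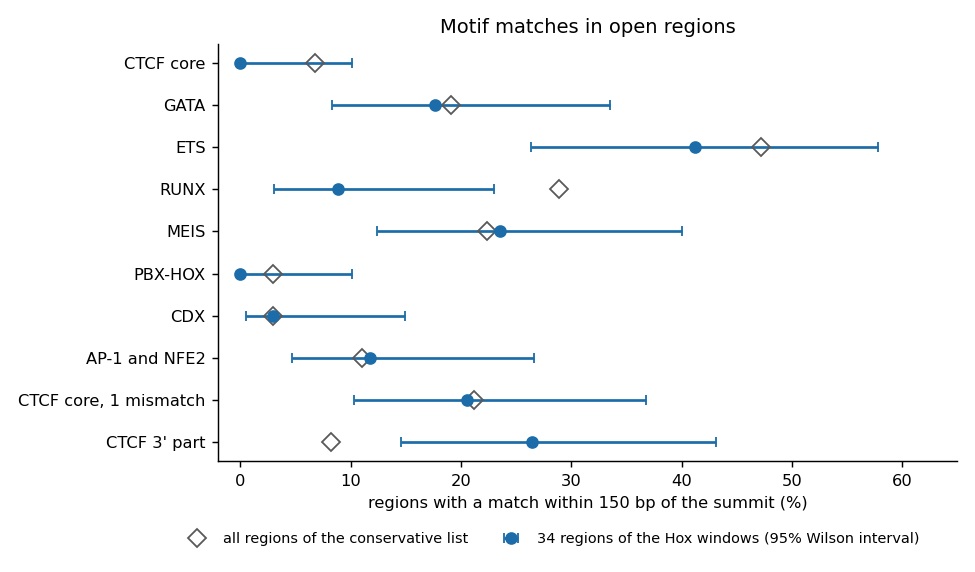
Share of open regions with a match to each recognition sequence within 150 bp of the summit (x axis, percent), as filled points with 95% Wilson intervals for the 34 regions of the Hox windows and open diamonds for all regions of the conservative list. The intervals cover counting error only. RUNX is the sequence whose diamond, at 28.9%, lies right of the interval. AGNNGGCGC, labelled CTCF 3′ part, is the one whose diamond, at 8.20%, lies left of it. That sequence was chosen after some of these regions had been read, so its position is a description only. The part of GC content in either difference was not tested.

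Most genes that regulate the Hox clusters or act with Hox proteins had an open promoter. All 9 Meis, Pbx and Pknox genes, which are a part of the TALE class, had a promoter peak. Among them were Pbx3 (14.6) and Pbx4 (13.2), with Meis1 at 9.15. Of these, 6 were in replicate 1's own list and 7 in replicate 2's; Meis2 and Meis3, at 4.83 and 5.06, were in neither. Of 15 genes of the MLL and trithorax group, which keep Hox genes active, 14 had a peak, led by Mllt3 (14.6), Ash2l (14.5) and Mllt1 (13.8), and Kdm6b had none. Of 28 Polycomb genes 27 had one, led by Phc2 (16.0), Pcgf5 (15.7) and Mtf2 (15.1), and Pcgf2 had none. All 12 genes of CTCF and cohesin had one, led by Rad21 (14.4), Mau2 (13.9) and Smc3 (13.7). The MLL, Polycomb, CTCF and cohesin lists include many genes of general use in cells, and 61% of all genes had a promoter peak.

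Homeobox genes outside the clusters were in most cases also without a promoter peak. Of the 8 Cdx, ParaHox and Evx genes, the nearest relatives and upstream regulators of Hox genes, only Gsx1 had one (11.7, with 10.1 in replicate 1 and 11.2 in replicate 2). Cdx1, Cdx2, Cdx4, Gsx2, Pdx1, Evx1 and Evx2 had none. Of 74 genes of other homeobox families of development, 23 had a promoter peak (31.1%), 18 in replicate 1 and 15 in replicate 2, among them Lhx3 (14.3) and Isl1 (12.8). Among their 46 CpG-island-like promoters 18 had a peak (39.1%). Members without a promoter peak included Alx4, Barhl2, Dlx2, Dlx3, Dlx5, Emx1, Emx2, En1, En2, Gbx1, Irx1, Irx3, Irx4, Irx6, Isl2, Lhx4, Lhx5, Lhx6, Lhx8, Lmx1a, Lmx1b, Meox1, Meox2, Msx3, Nkx1-1, Nkx1-2, Nkx2-1, Nkx2-2, Nkx2-3, Nkx2-4, Nkx2-5, Nkx2-6, Nkx2-9, Nkx3-2, Nkx6-2, Nkx6-3, Otx1, Otx2, Pitx1, Prrx1, Prrx2, Six2, Six3, Tlx1, Tlx2, Tlx3, Vax1 and Vsx1. The Hox genes, at 25.6%, stood beside these families at 31.1%, and the difference was not tested.

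The cell type label was checked against promoter peaks of marker genes. Of 16 megakaryocyte genes 12 had one (75%), beside 61% of all genes, led by Gp1ba (13.9), Nfe2 (10.4) and Runx1 (8.08), and those without included Ppbp, Gp6 and Vwf. The median signal of the 12 was low, at 5.99, against 11.2 for all genes with a promoter peak (lower quartile 8.64). The 3 T cell, 3 B cell, 3 mast cell and 3 stem cell markers had none in the conservative list, although replicate 2's own list held the mast cell gene Cpa3 (6.44) and the stem cell gene Slamf1 (7.19). Granulocyte genes had 2 of 3 (Mpo and Elane), erythroid genes 2 of 3 (Epor and Klf1) and monocyte genes 1 of 3 (Lyz2), so the part of other blood cells in the Hox values was not tested. Fewer cells with an open promoter and a less open promoter in every cell cannot be told apart in such bulk libraries.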

How the data were processed

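ATAC-seq peak lists of 2 libraries were used. Peak positions are on mm10, per the labels. The signal of each peak is the value that the authors deposited, and no scaling between libraries is stated. The authors made lists from each library alone and from both libraries together, with a threshold on IDR, by overlap of replicates or by pseudoreplicates, per the deposited file descriptions. The sources used here do not name an aligner, a peak caller or a correction for transposase offsets, and such choices can alter region counts and summit positions. 

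Peaks sharing bases were merged into regions with the signal of the strongest summit, with 1-based coordinates. GENCODE M21 gave 54361 start sites of 21938 protein-coding genes, and the genome sequence was GRCm38.p6, the assembly of mm10. The 21 chromosomes were compared, and 0 regions ran past an end. Wilson intervals are at 95% and cover counting error only. Python 3.11.15, pandas 2.3.3, numpy 2.4.6, scipy 1.17.1, pysam 0.24.0 and matplotlib 3.10.9 were used. The search for regions or summits within 1 kb of a start, and the motif search on both strands, were checked on simulated regions and sequences.

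With 1 group of 2 libraries no test between groups was made. The Hox genes, the gene lists and the motifs were chosen with earlier results of these data known. All Hox genes are counted, and some genes that the naming rule covers are not reported here. From each list of 4 or more genes, members without a promoter peak and the 3 with the highest signal are named. Coordinates are given for the 3 strongest promoter and the 3 strongest other regions of each cluster window. Alternatives were the other peak lists, each library alone, the stronger 50% of regions, promoter windows of 0.5 and 2 kb, principal start sites, summits in place of regions, flanks of 0, 20 and 100 kb, and motif windows of 100 bp each side. AGNNGGCGC and the CTCF core with 1 mismatch were added after seeing the data.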

Additional observations from a re-analysis of the deposited data

How the results depend on the processing

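The count of Hox genes with a promoter peak ranged from 5 with the stronger 50% of regions to 21 in the replicated list. The IDR-thresholded list of both libraries gave 2 Hoxc genes and a median signal of 8.41. The replicated list gave 21 Hox genes (4 Hoxb, 4 Hoxc, 5 Hoxd) with a median of 5.11, and 23, 19, 10 and 19 regions in the Hoxa, Hoxb, Hoxc and Hoxd windows. The pseudoreplicated list gave 20 (4 Hoxb, 4 Hoxc, 4 Hoxd) with a median of 5.61, and 24, 19, 8 and 19 regions. The stronger 50% of regions gave 5 (3 Hoxa, 1 Hoxb) with a median of 12.2, and 7 Hoxa and 2 Hoxd regions. A promoter window of 0.5 kb gave a median of 11.7, and one of 2 kb a median of 11.3 and 1 Hoxd gene. The median over all summits of a region gave 7.89. The Hoxd window held 10 regions with 100 kb flanks and 3 with no flank. Motif windows of 100 bp each side gave 11.8% for MEIS and 0% for CDX. The CTCF core with 1 mismatch was at 20.6% and AGNNGGCGC at 26.5%, both chosen after seeing the data. With 1 library left out, Hox genes numbered 9 either way (Hoxa 5 to 6, Hoxb 2, Hoxc 1 to 2, Hoxd 0), the median signal was 10 to 10.1, and windows held 8 to 10 Hoxa, 7 to 9 Hoxb, 2 to 3 Hoxc and 3 to 5 Hoxd regions. In the IDR-thresholded, replicated and pseudoreplicated lists, the stronger 50% of regions and each library alone, the Hox share stayed below that of all genes. No paired analysis was possible because there is 1 group. With 2 libraries of unstated separation and no read counts, a promoter without a listed peak was not detectable at this depth, which is not the same as closed.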
